A study of Homo sapiens with 5 samples.

Results

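Matrix metalloproteinases (MMPs) and the proteins that block them were followed across 5 libraries of HL60, an established human line of leukemic promyelocytes. The set held 9 of the 51055 counted genes: 5 enzymes (MMP2, MMP8, MMP9, MMP14 and MMP25) and 4 inhibitors (TIMP1, TIMP2, TIMP3 and RECK), and all 9 symbols were matched to a counted gene. The set was chosen by the measured levels of MMP2 and MMP9, which moved in opposite directions between cells carrying the antisense vector and their vector controls, so every member's values in that comparison are given as a description, without a test. For MMP2 and MMP9 the same holds in all comparisons.

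Protein-coding genes held between 96.6% and 97.1% of the counts in each library, although the labels name a kit for small RNA. UNT was a single library of untransduced HL60 cells. SCR (2 libraries) came from HL60 cells carrying the pGreenPur lentivector control, which the labels describe both as scramble and as empty, and ZIP (2 libraries) from cells carrying the same vector with a miRZip hairpin that makes antisense RNA to the microRNA miR-378a-3p. Both vectors carried green fluorescent protein, and transduction (multiplicity of infection 20, polybrene at 8 µg/mL) was followed by 2 µg/mL puromycin from day 3 to day 8. UNT differed from SCR and ZIP by all of these steps, which cannot be told apart from the vector itself. Nothing in the labels says that the replicate libraries of a group came from separate cultures, so a p-value here reflects how far apart these libraries lie, which could be technical variation.

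Total counts ran from 24406580 to 30925067, so 3 counts in a library corresponded to between 0.0970 and 0.123 CPM, the count scaled to library size. Replicates lay much closer to each other than to other groups: the chi-square per gene was 2.47 for the SCR pair and 1.79 for the ZIP pair, against 77.3 to 134 between libraries of different groups. The 10 promyelocyte markers were all detected, and their summed level was 28113 CPM in UNT, 14819 and 14782 in SCR, and 27488 and 26838 in ZIP. Most of it came from MPO, at 19021 CPM in UNT, 9966 and 9991 in SCR, and 17049 and 16583 in ZIP. In SCR against UNT 1 of the 10 was higher and 9 lower, where 64.9% of all genes were called (32.2% lower). In ZIP against SCR 8 were higher, 1 lower and 1 did not pass, where 65.4% of all genes were called (32.2% higher). In ZIP against UNT 4 of the 10 were higher, 4 lower and 2 did not pass, where 58.2% of all genes were called. MYB was highest in SCR, at 457 and 455 CPM, against 394 in UNT and 410 and 415 in ZIP. The 14 monocyte and macrophage markers that were matched summed to 605 CPM in UNT, 1587 and 1595 in SCR, and 1631 and 1626 in ZIP, most of it from LYZ (lysozyme), at 323 CPM in UNT, 1115 and 1120 in SCR, and 1392 and 1394 in ZIP. Among these 14, 12 were higher and 2 lower in SCR than in UNT, and 1 was higher, 11 lower and 2 did not pass in ZIP against SCR (median log2 difference -2.13). Over all genes, 64.9% were called in the first comparison (32.7% higher) and 65.4% in the second (33.2% lower). VCAN, SIGLEC1 and MARCO passed the filter on low counts only through SCR, where they are high, so they had to differ in both. In ZIP against UNT 7 of the 14 monocyte and macrophage markers were higher, 2 lower and 5 did not pass, where 58.2% of all genes were called. CD14, a monocyte receptor among them, stood at 2.09 CPM in UNT, 54.6 and 53.5 in SCR, and 3.49 and 4.17 in ZIP, so it was highest where MMP9 and MMP14 were. Of the 13 fibroblast and mesenchymal markers, a usual source of MMP2 and TIMP3 in tissue, 7 held 3 counts or fewer in every library (COL1A2, COL3A1, PDGFRA, PDGFRB, THY1, FAP and POSTN), and the list summed to between 4.53 and 5.75 CPM. Of the 3 tested in ZIP against SCR, COL6A3 was higher in ZIP, where 32.2% of all genes were. It had 0.793 CPM in UNT, 0.749 and 0.583 in SCR, and 1.31 and 1.45 in ZIP. TAGLN and ACTA2 did not pass. The part of these markers in the member levels was not tested. In bulk RNA, fewer cells of a kind and less RNA per cell cannot be told apart.

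MMPs are zinc proteases that cut collagens, gelatin and other proteins outside the cell, and they are made as inactive precursors whose propeptide must be removed. TIMPs occupy the active site of the mature enzyme, and RECK is an inhibitor tethered to the membrane by a glycolipid anchor that acts on MMP2, MMP9 and MMP14. TIMP2 has a second role: bound to MMP14 at the cell surface, it holds the MMP2 precursor so that a neighbouring MMP14 can cut it. In maturing neutrophils MMP8 is stored in specific granules and MMP9 in gelatinase granules, and MMP25, also called leukolysin, is made by leukocytes.

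The RNA against which the ZIP hairpin was directed, and its possible pairing with the members, come first, because the direct targets of a microRNA are read from its seed. The mature sequence of miR-378a-3p from RefSeq (GRCh38.p14, chr5:149732867-149732888, plus strand) has bases 2 to 8, the seed, in capitals. A search of 1 3′ untranslated region per gene (the GENCODE 29 basic transcript with the longest coding sequence) for AGTCCAG, the complement of the seed, found 1 match in MMP8, 1 in TIMP2 and none in the other 7 members. The matches are shown in capitals with their flanks.
hsa-miR-378a-3p: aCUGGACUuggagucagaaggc
MMP8 3′ untranslated region: ccaagtctagcgAGTCCAGatatcaaa
TIMP2 3′ untranslated region: agcatagtaagaAGTCCAGcctaggaa

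The MMP8 match begins at base 1318 of 1553 in that region and is followed by an A, and the TIMP2 match begins at base 1085 of 2690 and is not. Over all 18847 genes with such a region, 9.88% held at least 1 match, and the median region had 806 bases. The regions of MMP9 (193 bases) and TIMP1 (98 bases) are short, and that of TIMP3, with no match, has 3666. A match to these letters is a description of the sequence and not a measured site.

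**Figure D1:**
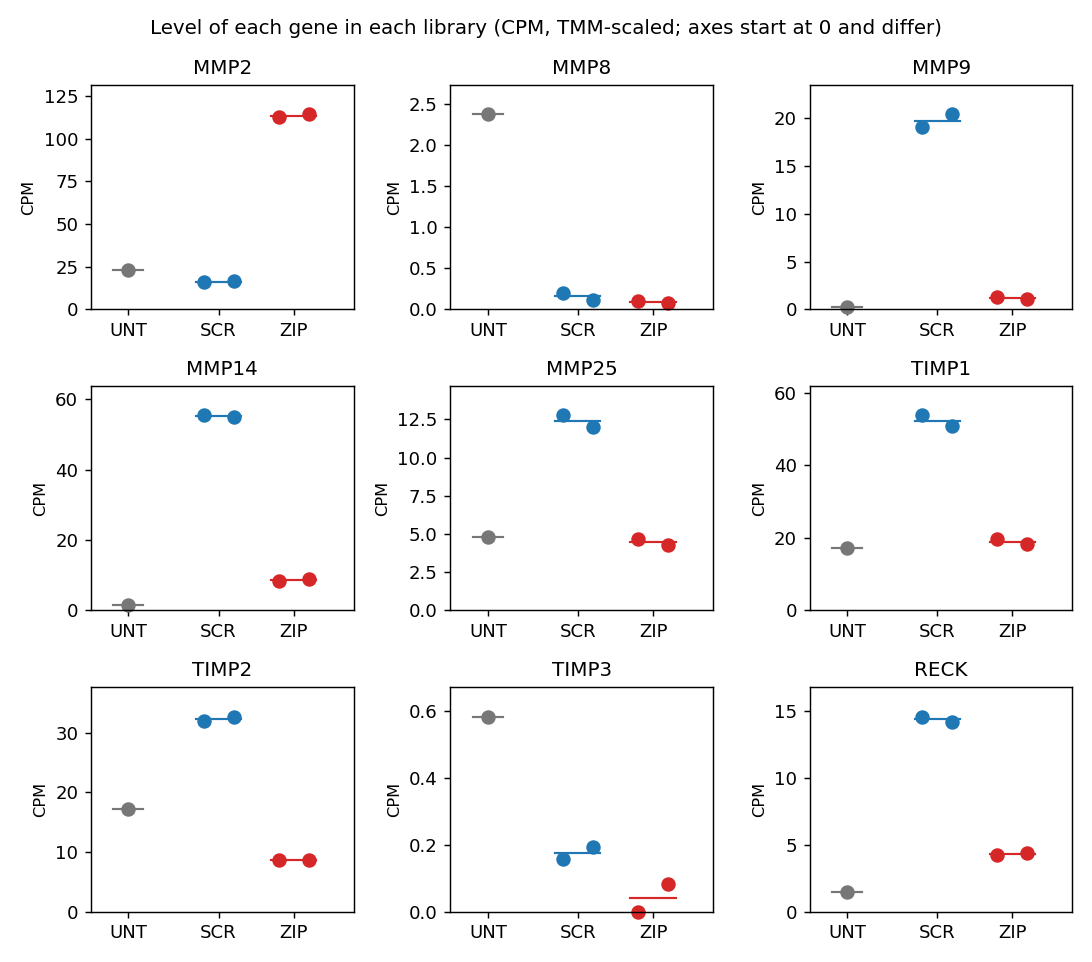
Level of each member (CPM on TMM-scaled library size, each axis starting at 0) in the UNT library and in the 2 SCR and 2 ZIP libraries, 1 point per library with a line at the group mean. MMP2 is highest in ZIP at 113 and 114 CPM, while MMP9, MMP14, MMP25, TIMP1, TIMP2 and RECK are highest in both SCR libraries.

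MMP2, the gelatinase that many stromal cells make, was the one member highest in ZIP. Its level was 22.8 CPM in UNT, 16.2 and 16.4 CPM in SCR, and 113 and 114 CPM in ZIP. Both ZIP libraries thus lay far above the other 3, and both SCR libraries lay below UNT. The log2 difference was 2.80 ± 0.05 (standard error) between ZIP and SCR, a 6.97-fold higher level, 2.31 ± 0.06 between ZIP and UNT, and -0.49 ± 0.07 between SCR and UNT. These MMP2 values rest on 547 counts in UNT and between 410 and 3448 in the other libraries.

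MMP9, the gelatinase of mature neutrophils and activated macrophages, ran the other way. Its UNT level was close to undetected, with 6 counts or 0.250 CPM, the SCR libraries gave 19.1 and 20.4 CPM, and the ZIP libraries gave 1.27 and 1.12 CPM. SCR therefore held all of the high values, and ZIP lay between SCR and UNT without overlap. The log2 difference between ZIP and SCR was -4.03 ± 0.18, a 16.3-fold lower level. Against UNT, the ratio of counts was 78.9 for SCR, with a 95% counting interval from 36.1 to 215, and 4.81 for ZIP, with an interval from 2.10 to 13.6. These intervals cover counting error only, and most of their width comes from the 6 counts of the UNT library.

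The ratio of MMP2 to MMP9 levels, each divided by the exon length of its gene, summarises the exchange of gelatinases: 43.2 in UNT, 0.401 and 0.381 in SCR, and 41.9 and 48.5 in ZIP. The levels of both genes chose the set, so the ratio had to differ between SCR and ZIP and is a description only. ZIP and UNT thus had a similar ratio from different parts, since the MMP2 level per kilobase was 23.0 CPM in ZIP against 4.63 in UNT, and that of MMP9 0.511 against 0.107. MMP2 lies at chr16:55389700-55506691 and MMP9 at chr20:46008908-46016561, both on the plus strand (GRCh38, GENCODE 29). MMP2 shares 174 exon bases with AC007336.3 on the same strand. MMP9 shares 430 exon bases with an antisense gene, SLC12A5-AS1, which held 3 counts or fewer in every library, and the sources used here do not give whether the counting used strand.

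MMP14 and MMP25 stay on the cell surface, the first through a transmembrane segment and the second through a glycolipid anchor. MMP14, the main activator of the MMP2 precursor, had 1.54 CPM in UNT, while the SCR libraries gave 55.4 and 55.0 CPM and the ZIP libraries 8.26 and 8.84 CPM. Its counts were 37 in UNT, 1406 and 1414 in SCR, and 253 and 214 in ZIP, so the SCR pair stood highest and UNT lowest. MMP14 was 35.7-fold higher in SCR than in UNT (95% interval 26.3 to 48.3; log2 difference 5.16 ± 0.22, edgeR quasi-likelihood test, Benjamini-Hochberg adjusted p = 6.6e-20). In ZIP it was 5.51-fold higher than in UNT (log2 2.46 ± 0.23, edgeR adjusted p = 9e-11), and the description against SCR was -2.69 ± 0.07 on the log2 scale. So MMP14 in ZIP, where MMP2 was highest, lay below its SCR level and above its UNT level.

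MMP25 moved less. Its level was 4.80 CPM in UNT, 12.8 and 11.97 CPM in SCR, and 4.70 and 4.26 CPM in ZIP. SCR stood above the rest, and ZIP was near UNT. The rise in SCR over UNT was 2.58-fold (log2 1.37 ± 0.15, edgeR adjusted p = 7.4e-09). ZIP against UNT did not pass the test (edgeR adjusted p = 0.65), with a fold of 0.939 and a 95% interval from 0.753 to 1.17. Between ZIP and SCR the log2 difference of MMP25 was -1.46 ± 0.11. MMP25 (chr16:3046681-3060726, plus strand) shares 1454 exon bases with its antisense gene MMP25-AS1, so reads of that stretch cannot be told apart unless strand was used.

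MMP14 is one of the 5 members with an entry in the RefSeq promoter table, along with MMP8, TIMP1, TIMP3 and RECK. The 250 bases before each start were searched on both strands for the AP-1 letters TGANTCA and TGAGTAA, the SP1 letters GGGCGG, the C/EBP letters TTGCNNAA and the TATA letters TATAAA. The MMP14 window (GRCh38.p14, chr14:22836335-22836556, plus strand, up to the first annotated exon base) is printed since MMP14 and TIMP1 are the enzyme and the inhibitor that stood highest per length in SCR. Its single motif match, GGGCGG at 66 to 61 bases before the start, is in capitals, as is the GGGCGG match of the TIMP1 window (chrX:47582186-47582312, plus strand), which reads on the other strand at 135 to 130 bases before the start. A further TIMP1 match at 45 to 40 bases lies in annotated exon and is not printed. The MMP8 window (chr11:102725004-102725204, minus strand) is set beside them for its matches to TATAAA and TTGCNNAA.
MMP14 promoter: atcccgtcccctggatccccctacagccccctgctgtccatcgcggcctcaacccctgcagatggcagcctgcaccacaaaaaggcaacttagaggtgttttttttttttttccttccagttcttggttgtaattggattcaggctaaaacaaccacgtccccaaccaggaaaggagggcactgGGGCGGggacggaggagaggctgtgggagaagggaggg
TIMP1 promoter: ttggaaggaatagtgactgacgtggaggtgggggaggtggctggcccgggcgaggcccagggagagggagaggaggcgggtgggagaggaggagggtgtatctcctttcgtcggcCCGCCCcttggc
MMP8 promoter: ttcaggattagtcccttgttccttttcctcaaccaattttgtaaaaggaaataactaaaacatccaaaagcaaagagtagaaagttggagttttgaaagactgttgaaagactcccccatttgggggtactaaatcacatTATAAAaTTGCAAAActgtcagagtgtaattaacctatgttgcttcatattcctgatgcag

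GGGCGG occurs in 42.6% of the 35116 promoter windows in the table, TATAAA in 10.7% and TTGCNNAA in 9.05%. The number of GGGCGG matches was 5 in TIMP3, 3 in RECK, 2 in TIMP1, 1 in MMP14 and 0 in MMP8. None of the 5 windows held TGANTCA (6.57% of all windows), and TGAGTAA (2.21%) was found once, in TIMP1 at 101 to 95 bases before the start. The MMP8 window was 36.4% G and C, against 56.8% for MMP14, 64.8% for TIMP1, 72.4% for TIMP3 and 63.6% for RECK. These are letters in a window, and binding was not measured.

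MMP8, the neutrophil collagenase, was nearly lost in all 4 transduced libraries. It had 57 counts in UNT (2.38 CPM), 5 and 3 counts in SCR, and 3 and 2 counts in ZIP. UNT alone stood out, and SCR and ZIP could not be separated at this depth: the ratio of ZIP to SCR was 0.583 with a 95% counting interval from 0.150 to 2.02. MMP8 was 15.2-fold lower in SCR than in UNT (95% counting interval 7.21 to 36.9; edgeR adjusted p = 1.1e-07) and 26.1-fold lower in ZIP (10.5 to 83.4; edgeR adjusted p = 3.9e-08). It passed the filter on low counts only through the UNT library, where it is high, so it had to differ.

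MMP8 (chr11:102711795-102727050, minus strand) lies in a cluster of MMP genes, and 8 of them within 500 kb were counted. MMP7, MMP20, MMP27, MMP10 and MMP3 were at 0 in every library, and MMP13 had 3 counts in UNT, none in SCR and 1 in each ZIP library. MMP1, the interstitial collagenase, was the exception: 2 counts in UNT, 69 and 70 in SCR, and 0 and 2 in ZIP. MMP1 was 32.6-fold higher in SCR than in UNT (counting interval 8.86 to 272) and 74.6-fold lower in ZIP than in SCR (20.3 to 622). It passed the filter only through SCR, where it is high, so it had to differ. The collagenases MMP8 and MMP1, 62.9 kb apart, were thus highest in different libraries.

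**Figure D2:**
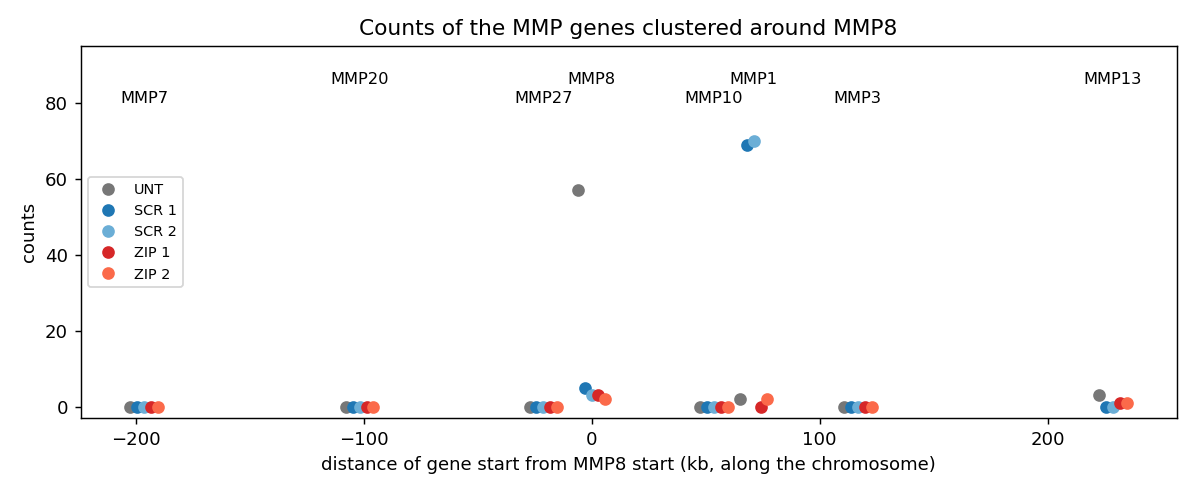
Raw counts of the 8 counted MMP genes around MMP8 in each library, placed by distance from the MMP8 start in kb. MMP8 is high in UNT with 57 counts and MMP1 in SCR with 69 and 70, and the other 6 hold 3 counts or fewer in each library.

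TIMP1, the most abundant inhibitor per length, followed the vector control. It stood at 17.3 CPM in UNT, 53.8 and 50.8 CPM in SCR, and 19.7 and 18.4 CPM in ZIP. Both SCR libraries were high, and ZIP lay just above UNT. TIMP1 was 3.03-fold higher in SCR than in UNT (log2 1.60 ± 0.08, edgeR adjusted p = 1.3e-14). ZIP against UNT did not pass (1.11-fold, 95% interval 0.980 to 1.25, edgeR adjusted p = 0.17), and the log2 difference between ZIP and SCR was -1.45 ± 0.06. TIMP1 (chrX:47582313-47586789, plus strand) lies inside SYN1 on the opposite strand and shares no exon base with it.

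TIMP2, which both blocks MMPs and takes part in activating MMP2, was the inhibitor that ended below its untransduced level in ZIP with ample counts. Its level was 17.2 CPM in UNT, 32.0 and 32.7 CPM in SCR, and 8.75 and 8.60 CPM in ZIP. SCR lay above UNT and ZIP below it. TIMP2 rose 1.88-fold in SCR over UNT (log2 0.91 ± 0.08, edgeR adjusted p = 6.3e-10) and was 1.98-fold lower in ZIP than in UNT (log2 -0.99 ± 0.10, edgeR adjusted p = 9.5e-09). Between ZIP and SCR the log2 difference was -1.90 ± 0.07. TIMP2 lies at chr17:78852977-78925387 on the minus strand. It shares 367 exon bases with AC022966.1 on the opposite strand. A further 198 are shared with CEP295NL on the same strand, which held 3 counts or fewer in every library.

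RECK, the membrane-tethered inhibitor, was at 1.46 CPM in UNT, 14.6 and 14.2 CPM in SCR, and 4.21 and 4.38 CPM in ZIP. SCR was highest and UNT lowest, the same order of groups as for MMP9, MMP14 and TIMP1. RECK was 9.85-fold higher in SCR than in UNT (95% interval 7.16 to 13.6; edgeR adjusted p = 8.7e-14) and 2.93-fold higher in ZIP than in UNT (edgeR adjusted p = 2.1e-06). The log2 difference between ZIP and SCR was -1.75 ± 0.11. RECK lies at chr9:36036433-36124451 on the plus strand.

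TIMP3, the inhibitor bound to the matrix, was scarce everywhere: 14 counts in UNT, 4 and 5 in SCR, and 0 and 2 in ZIP. UNT had the highest count, and like MMP8 this gene passed the filter only through UNT. In SCR it was lower than in UNT by -1.70 ± 0.76 on the log2 scale (edgeR adjusted p = 0.047), a call that was lost without SCR 1 (edgeR adjusted p = 0.13) and without SCR 2 (edgeR adjusted p = 0.09). In ZIP the ratio of counts was 16.0-fold lower than in UNT, with a counting interval from 3.68 to 145 (edgeR adjusted p = 0.0017, and 0.022 without ZIP 1, the library at 0). TIMP3 lies at chr22:32801701-32863043 on the plus strand.

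Counted over the 7 members other than MMP2 and MMP9, 5 were called higher and 2 lower in SCR than in UNT, where 64.9% of 15832 genes were called (32.7% higher and 32.2% lower). The 5 higher were MMP14, MMP25, TIMP1, TIMP2 and RECK, and the 2 lower were MMP8 and TIMP3, which had to differ. In ZIP against UNT, 2 were higher (MMP14 and RECK), 3 lower (MMP8, TIMP2 and TIMP3) and 2 did not pass (MMP25 and TIMP1), where 58.2% of genes were called (28.5% higher and 29.7% lower). In ZIP against SCR, 7 of the 9 members passed the filter, 1 with a positive and 6 with a negative difference, in a comparison where 65.4% of 14643 genes were called (32.2% higher and 33.2% lower); the choice of members used this contrast and nothing is read from that count. The comparisons share libraries and are not independent.

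**Figure D3:**
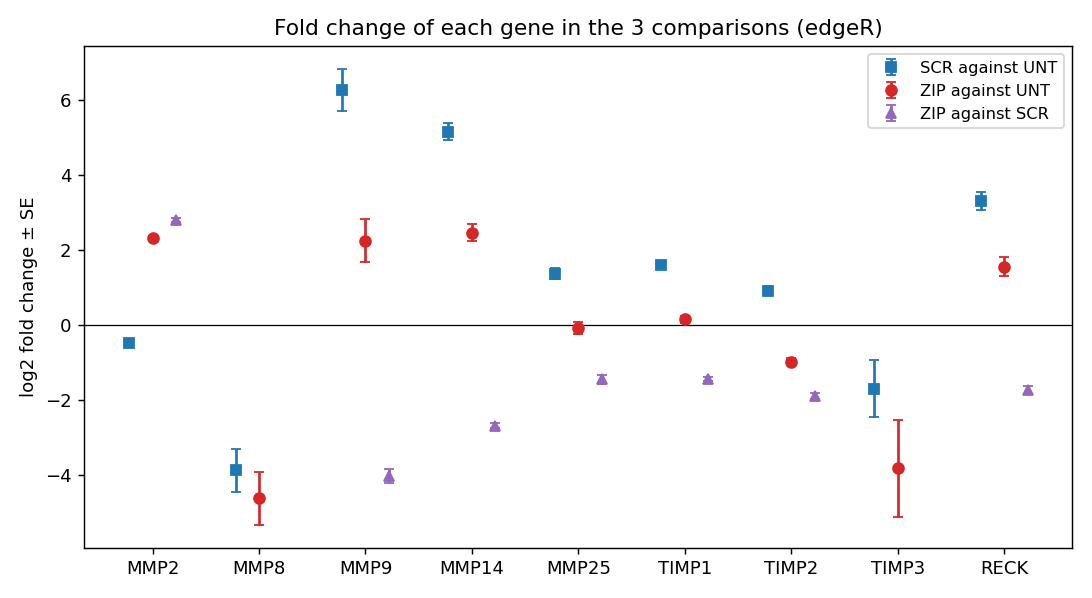
Log2 difference of each member in ZIP against SCR, SCR against UNT and ZIP against UNT, with standard errors from the fitted model as bars. MMP2 is the member with a positive value in ZIP against SCR (2.80), and MMP9 and MMP14 reach 6.27 and 5.16 in SCR against UNT.

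Levels of different genes can be set side by side once divided by exon length. The summed level of the 5 enzymes was 6.93 CPM per kb in UNT, 27.0 and 27.3 in SCR, and 26.4 and 26.7 in ZIP, so SCR and ZIP held nearly the same sum. The makeup of the sum by exon length differed: MMP2 was 66.7% of it in UNT, 12.1% and 12.2% in SCR, and 86.5% and 86.8% in ZIP. MMP14 was 4.99% in UNT, 45.96% and 45.1% in SCR, and 7.01% and 7.42% in ZIP.

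The 4 inhibitors summed to 14.6 CPM per kb in UNT, 43.1 and 41.2 in SCR, and 15.004 and 14.2 in ZIP. TIMP1 made up between 76.6% and 85.0% of that sum in every library. Enzymes divided by inhibitors gave 0.474 in UNT, 0.627 and 0.663 in SCR, and 1.76 and 1.88 in ZIP. In ZIP the enzyme sum was 86.5% and 86.8% MMP2, whose levels chose the set. The high ZIP quotients therefore rest on that choice and are a description only. With the length of 1 transcript per gene in place of all exons, an alternative added after seeing the data, the quotients were 0.357 in UNT, 0.430 and 0.454 in SCR, and 1.35 and 1.45 in ZIP. Transcript sums say nothing of protein or of activity.

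The usual pairs of enzyme and inhibitor took different courses. The TIMP2 level per kilobase divided by that of MMP2 was 0.661 in UNT, 1.73 and 1.75 in SCR, and 0.0681 and 0.0658 in ZIP. TIMP1 divided by MMP9 was 105 in UNT, 4.28 and 3.77 in SCR, and 23.4 and 25.0 in ZIP. ZIP thus had little TIMP2 for its MMP2 and much TIMP1 for its MMP9. Both quotients rest on MMP2 or MMP9, whose levels chose the set, and are a description only.

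**Figure D4:**
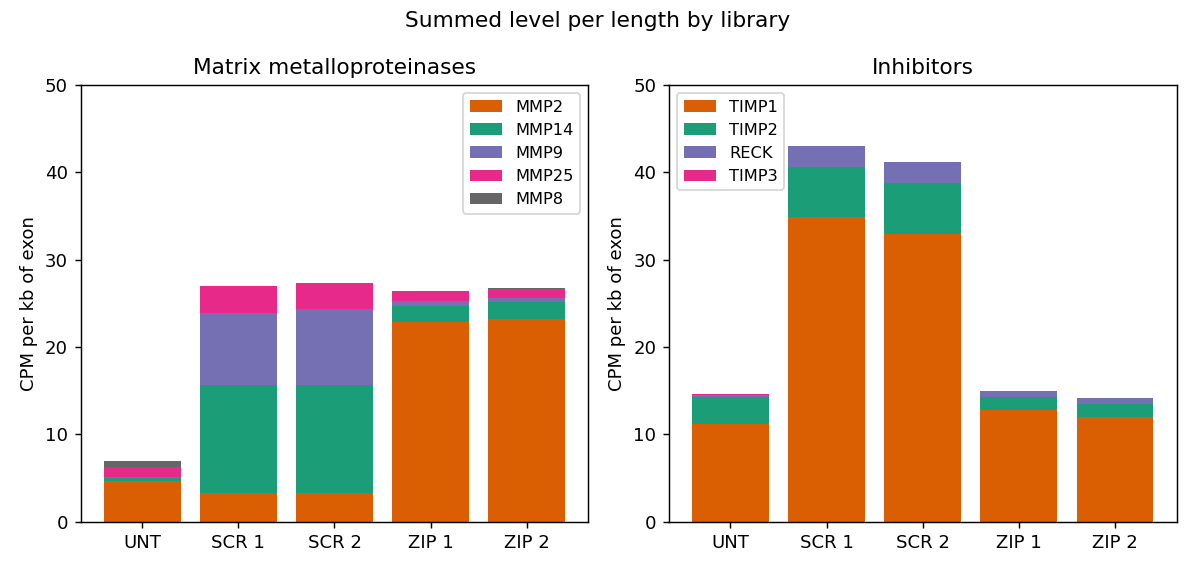
Summed level per kb of exon (CPM per kb) of the enzymes and of the inhibitors in each library, stacked by gene. Enzyme bars reach 27.0 and 27.3 in SCR, mostly MMP14 and MMP9, and 26.4 and 26.7 in ZIP, mostly MMP2, while inhibitor bars drop from 43.1 and 41.2 to 15.004 and 14.2.

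Among the other MMPs and TIMP4, 17 of 19 listed genes were matched and 5 passed the filter in each comparison. In SCR against UNT 3 were higher (MMP1, MMP17 and MMP19) and 2 did not pass, and in ZIP against SCR the same 3 were lower, where 32.7% and 33.2% of all genes were called in those directions. MMP1 and MMP19 passed the filter only through SCR, where they are high, so they had to differ and MMP17 is the one call not set by the filter. MMP17, the other enzyme with a glycolipid anchor, stood at 0.709 CPM in UNT, 6.23 and 5.29 in SCR, and 1.86 and 1.41 in ZIP (log2 -1.79 ± 0.19 in ZIP against SCR, edgeR adjusted p = 1.5e-08). It was the only one of the 5 called in ZIP against UNT (log2 1.22 ± 0.38, edgeR adjusted p = 0.005), a call lost without ZIP 1 (edgeR adjusted p = 0.062) and by DESeq2 (adjusted p = 0.054). MMP19 had 1.42 and 1.24 CPM in SCR and under 0.1 CPM in the other libraries (14.6-fold lower in ZIP than in SCR, counting interval 5.96 to 46.4). MMP15, a transmembrane enzyme, stayed between 2.88 and 4.39 CPM and MMP24 between 0.417 and 0.947 CPM, and neither passed in any comparison.

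The ADAM and ADAMTS families are relatives of the MMPs that shed surface proteins or cut proteoglycans. Of 15 that passed the filter, 11 were higher and 1 lower in SCR than in UNT (median log2 difference 1.32, against 0.0160 over all genes), and of 12 in ZIP against SCR, 3 were higher and 9 lower (median -0.61). Over all genes, 64.9% were called in the first comparison (32.7% higher) and 65.4% in the second (33.2% lower). ADAM8, a sheddase of myeloid cells, was at 21.1 CPM in UNT, 22.7 and 21.6 in SCR, and 10.2 and 10.2 in ZIP, and ADAMTS10 was at 3.92 CPM in UNT, 6.74 and 6.92 in SCR, and 1.959 and 2.23 in ZIP. ADAM9 stood at 27.9 CPM in UNT, 74.6 and 75.5 in SCR, and 48.4 and 49.0 in ZIP. ADAMTS1, a secreted aggrecanase, was instead highest in ZIP, at 26.5 and 24.6 CPM against 10.6 and 10.3 in SCR and 4.17 in UNT (log2 1.30 ± 0.08 in ZIP against SCR, edgeR adjusted p = 4.3e-12).

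Plasmin can cut MMP precursors, and 11 genes of the plasminogen system were tested in ZIP against SCR: 1 was higher, 8 lower and 2 did not pass (median -0.68), where 32.2% of all genes were called higher and 33.2% lower. PLAUR, the urokinase receptor, stood at 52.4 CPM in UNT, 109 and 111 in SCR, and 54.3 and 47.9 in ZIP. SERPINB2, an inhibitor of urokinase, was at 9.09 CPM in UNT, 54.6 and 48.6 in SCR, and 33.1 and 31.3 in ZIP. ANXA2 and S100A10 together form a plasminogen receptor. ANXA2 had 0.292 CPM in UNT, 33.9 and 37.2 in SCR, and 7.54 and 8.51 in ZIP. S100A10 had 4.13 CPM in UNT, 31.8 and 32.1 in SCR, and 2.97 and 3.18 in ZIP. Both were called lower in ZIP than in SCR, S100A10 by -3.38 ± 0.11 and ANXA2 by -2.15 ± 0.08 on the log2 scale.

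Of 15 tested proteases that activate MMPs and partners that bind them, 6 were higher, 8 lower and 1 did not pass in ZIP against SCR (median -0.51), beside the same shares over all genes. The higher ones included the granule serine proteases ELANE (log2 1.71 ± 0.03), CTSG (2.17 ± 0.03) and PRTN3 (1.97 ± 0.02), which are also among the promyelocyte markers. Among the lower ones was ITGB2, the integrin beta chain of leukocytes, at 175 CPM in UNT, 739 and 741 in SCR, and 295 and 291 in ZIP. Chosen after their values were seen, FURIN, which removes the propeptide of MMP14, stood at 58.9 CPM in UNT, 101 and 98.7 in SCR, and 81.2 and 79.9 in ZIP. LRP1, an endocytic receptor that clears MMP complexes and was chosen in the same way, had 0.959 CPM in UNT, 41.0 and 44.9 in SCR, and 7.90 and 8.47 in ZIP.

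Matrix proteins that MMPs cut were split: of 12 tested in ZIP against SCR, 3 were higher, 5 lower and 4 did not pass (median -0.12), where 65.4% of all genes were called. LAMC1, a laminin chain, was at 11.7 CPM in UNT, 16.8 and 15.4 in SCR, and 33.5 and 33.8 in ZIP. HSPG2, the basement membrane proteoglycan perlecan, was at 6.38 CPM in UNT, 25.3 and 28.2 in SCR, and 50.4 and 47.5 in ZIP. Both were highest in ZIP, as MMP2 was. NID1, which links laminin to collagen, had the opposite course, with 0.417 CPM in UNT, 14.1 and 13.1 in SCR, and 0.914 and 1.12 in ZIP. VCAN, the proteoglycan versican and also a monocyte marker, did so with the smallest p of the list, at 0.0834 CPM in UNT, 20.8 and 21.2 in SCR, and 0.163 and 0.0827 in ZIP, though it passed the filter only through SCR and had to differ.

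Among 18 tested transcription factors known from MMP gene regulation, 15 were higher and 2 lower in SCR than in UNT, and 5 were higher and 13 lower in ZIP than in SCR (medians 0.84 and -0.60). Over all genes, 32.7% were higher and 32.2% lower in the first comparison, and 32.2% and 33.2% in the second. JUN, an AP-1 subunit, had 7.47 CPM in UNT, 250.2 and 250.1 in SCR, and 99.3 and 94.9 in ZIP, and its partner FOS had 5.59 CPM in UNT, 135 and 131 in SCR, and 49.3 and 48.9 in ZIP. FOSL2, another AP-1 subunit, stood at 29.03 CPM in UNT, 213 and 216 in SCR, and 59.5 and 60.8 in ZIP. The 5 factors higher in ZIP than in SCR were FOSB, RELA, NFKB1, REL and ETS2. FOSB, also an AP-1 subunit and chosen after its values were seen, had 1.13 CPM in UNT, 5.48 and 5.13 in SCR, and 11.1 and 11.5 in ZIP. CEBPB, a factor of myeloid differentiation, was at 56.4 CPM in UNT, 115 and 113 in SCR, and 33.4 and 33.0 in ZIP (log2 -1.78 ± 0.04 in ZIP against SCR). Granule genes stored with MMP8 and MMP9 did not share one course: of 9 tested in SCR against UNT, 2 were higher, 5 lower and 2 did not pass (median -2.03), where 64.9% of all genes were called. OLFM4, one of the lower ones, passed the filter only through UNT, where it is high, and had to differ. CEACAM8, a specific granule protein, was at 23.7 CPM in UNT, 0.552 and 0.428 in SCR, and 1.796 and 1.82 in ZIP, so UNT was highest, as for MMP8. SLPI, a protease inhibitor, was at 10.2 CPM in UNT, 2.64 and 2.37 in SCR, and 7.64 and 6.74 in ZIP, while FCN1, a lectin, was highest in SCR, with 5.09 CPM in UNT, 9.89 and 11.003 in SCR, and 2.19 and 1.32 in ZIP. TCN1, a vitamin B12 carrier, was also highest in SCR, at 1.46 and 1.32 CPM, against 0.125 CPM in UNT and 0.261 and 0.413 in ZIP.

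The genes nearest in pattern to the gelatinases were ranked among 11711 by distance on the pair of log2 levels, SCR over UNT and ZIP over UNT, a description over 3 groups. For MMP2 they were EPHA8, ALDH1A1, DST, SNX18P3 and MAP1A, at distances of 0.172 to 0.696. EPHA8 and ALDH1A1 were close to undetected outside ZIP, at 0.209 and 0.250 CPM in UNT. In SCR EPHA8 had 0.118 and 0.156 CPM and ALDH1A1 0.0394 and 0.272, so their SCR over UNT values rest on few counts. DST, a cytoskeletal linker, had 28.0 CPM in UNT, 27.9 and 28.96 in SCR, and 122 and 133 in ZIP. The other 4 stayed under 8 CPM, and these levels are not divided by exon length. For MMP9 they were IFIT2, IFI44, DAGLA, CCNA1 and TGFBI, at distances of 0.352 to 0.655. IFI44 and DAGLA had 0.0834 and 0.0417 CPM in UNT, so their values also rest on few counts there. IFIT2, an interferon-induced gene, had 0.292 CPM in UNT, 20.8 and 21.7 in SCR, and 1.11 and 0.992 in ZIP. CCNA1, a cyclin of the germ line and of myeloid leukemia, had 1.001 CPM in UNT, 48.0 and 47.5 in SCR, and 6.46 and 5.04 in ZIP.

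The nearest tested protein-coding genes on each side of a member, also chosen after the counts were seen, did not all follow it. LPCAT2, 2.3 kb beyond MMP2, stood at 356 CPM in UNT, 207 and 209 in SCR, and 271 and 276 in ZIP, a log2 difference of 0.40 ± 0.03 between ZIP and SCR against 2.80 for MMP2. Beside MMP9, ZNF335 and NCOA5 had differences of 0.09 ± 0.04 each and did not pass (edgeR adjusted p = 0.096 and 0.053). LRP10, 22.6 kb beyond MMP14, was at 39.4 CPM in UNT, 85.4 and 84.5 in SCR, and 37.3 and 35.7 in ZIP, while MRPL52, 1.5 kb before it, had a log2 difference of -0.04 ± 0.04 between ZIP and SCR. CFP, the complement factor properdin, 36.4 kb beyond TIMP1, was at 15.3 CPM in UNT, 28.1 and 28.5 in SCR, and 13.4 and 11.8 in ZIP. LGALS3BP, 45.9 kb beyond TIMP2, differed more than its neighbour, with -3.10 ± 0.48 between ZIP and SCR on the log2 scale, from levels of 0.0417 CPM in UNT, 1.58 and 1.63 in SCR, and 0.131 and 0.248 in ZIP; it passed the filter only through SCR and had to differ.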

How the data were processed

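RNA of 5 HL60 libraries (1 UNT, 2 SCR, 2 ZIP) was sequenced. The authors deposited 1 table of raw read counts per gene. Bowtie2 and featureCounts are named per the submitters' processing notes, while the series' design text names other aligners and counters; the sources used here give no build, annotation or strand setting, so coordinates come from matching the 51055 gene IDs to GENCODE 29 (44305 matched, GRCh38).

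Counts were tested with edgeR 4.0.16 (R 4.3.3): filterByExpr with a minimum count of 10 and a minimum total of 15, TMM scaling, quasi-likelihood F test, Benjamini-Hochberg adjustment over all genes, threshold 0.05. ZIP against SCR used the 4 transduced libraries; comparisons with UNT used all 5, where the lone UNT library is assumed to vary like the others. Fold intervals are 95% intervals from the fit; counting intervals are exact (Clopper-Pearson) and, like the 3-count floor, cover counting error only. CPM was computed on TMM-scaled totals. The code was tested on simulated data. Members and lists were chosen with earlier results of these data known. Named were all members, other MMPs with at least 10 counts in a library, up to 4 genes per list with the smallest p in ZIP against SCR (mean of at least 1 CPM), and the 5 genes most like MMP2 or MMP9. Alternatives were library totals, DESeq2 1.42.0, no filter, a replicate block, all 5 libraries in the ZIP against SCR fit, leaving out each replicate, and 1 transcript length per gene.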

Additional observations from a re-analysis of the deposited data

How the results depend on the processing

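Of 97 recomputed values of tested members, 93 kept their direction and side of the threshold and 4 lost a call, and of 91 values of members described without a test, 89 kept within their spread or standard error and 2 moved; none reversed. TIMP3 in SCR against UNT lost its call without either SCR library, with library totals (edgeR adjusted p = 0.062) and by DESeq2 (adjusted p = 0.42); in ZIP against UNT DESeq2 gave it no adjusted p. Library totals moved the median of all genes in SCR against UNT from 0.0160 to 0.126 (log2), raised the share of higher calls from 50.4% to 59.9%, and gave MMP2 -0.38 there and 2.74 in ZIP against SCR. DESeq2 called 5897 genes in ZIP against UNT instead of 9212. Leaving out 1 replicate gave 8707 to 9088 calls in ZIP against SCR, 9548 to 10556 in SCR against UNT and 8390 to 9169 in ZIP against UNT.

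Signs changed for genes that did not pass the test in the reported fit: MMP15 in ZIP against SCR (-0.36 to 0.064 over left-out replicates), and in ZIP against UNT PLAUR (0.024 with library totals, -0.13 to 0.063 over left-out replicates), PRTN3 (-0.0052 to 0.049, with calls gained by library totals, edgeR adjusted p = 0.0034, and without ZIP 2, edgeR adjusted p = 0.011) and VCAN (-0.012 to 0.94); the cause was not tested. Of 667 values of other named genes, 648 stayed the same, 9 lost a call, 4 gained one and 6 changed sign. DESeq2 called 6 matrix genes in SCR against UNT and 4 in ZIP against UNT, where edgeR called 10 and 7. A replicate block gave 9709 calls in ZIP against SCR instead of 9571; the shared numbers mark no stated pairing, and the deviations of same-numbered libraries correlated at 0.0847 over 10356 genes. Depth limits MMP8 and TIMP3, with 5 counts or fewer in each SCR and ZIP library.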
